A study of Mus musculus with 24 samples.

Results

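The Cyp4a genes of the mouse encode cytochrome P450 enzymes that hydroxylate the omega end of fatty acids. They were taken here as every row of the deposited tables whose mouse symbol starts with Cyp4a. The rule found 5 genes of 16921, namely Cyp4a10, Cyp4a12a, Cyp4a12b, Cyp4a14 and Cyp4a31; the working list behind it had named 4 of them and lacked Cyp4a31. All 5 passed the filter on low counts and were among the 15165 genes tested. Expression was measured in kidney cortex of male mice at 22 months of age, all on the C57BL6/J background and fed ad libitum. Diets with casein as the protein source had started at 3 months of age.

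The 4 groups were FGF21 KO mice on the low protein diet with 5% casein (KO_LP), FGF21 KO mice on the normal protein diet with 20% casein (KO_NP), wild type mice on the low protein diet (WT_LP) and wild type mice on the normal protein diet (WT_NP). FGF21 KO mice lack the hormone FGF21, a product mainly of the liver that responds to protein restriction; the labels do not say how the knockout line was made. Each group held 6 libraries, 1 per mouse, and the number after a group name is only a name. The libraries were Lexogen QuantSeq, which gives reads near the 3′ end of a transcript, here forward reads of 50 bases. Library totals ran from 8.47 M to 21.1 M counts with a median of 15.0 M. Levels are given in CPM, the count of a gene scaled to a common library size with TMM factors; since each transcript yields a tag at its 3′ end, CPM here does not scale with transcript length. The labels give no batch, and a batch that followed the groups cannot be told apart from them. Fgf21 itself was not analysed here, so the knockout could not be checked in these values. Proximal tubule markers were abundant, with Slc34a1, a phosphate transporter of the early proximal tubule, at a median of 2333 CPM in KO_LP, 3271 in KO_NP, 2546 in WT_LP and 2488 in WT_NP.

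Cyp4a enzymes sit in the endoplasmic reticulum and take electrons from the reductase Por. They turn medium and long chain fatty acids into omega-hydroxy acids, which are oxidised on to dicarboxylic acids and shortened in peroxisomes, and they turn arachidonic acid into 20-HETE, a lipid that acts on renal vessels and on tubular salt transport. In mouse kidney they are found mainly in the proximal tubule. Cyp4a10 and Cyp4a14 are classic targets of the fatty acid receptor PPAR alpha. Cyp4a12a is the main 20-HETE synthase of the mouse kidney, is higher in males and responds to androgen, whereas Cyp4a14 is higher in females. In bulk RNA, fewer tubule cells and less RNA per cell cannot be told apart.

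The 5 genes lie within 280.0 kb of chromosome 4 (GRCm38, GENCODE M21). Cyp4a12a spans chr4:115299046-115332815 and Cyp4a12b chr4:115411624-115439034, both on the plus strand. Cyp4a14 spans chr4:115486200-115496142 on the minus strand. Cyp4a10 spans chr4:115518264-115533649 and Cyp4a31 chr4:115563649-115579015, both on the plus strand. The other coding Cyp4a genes of this cluster, Cyp4a29, Cyp4a30b and Cyp4a32, are not among the members; their expression was not analysed here.

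How alike the members are bears on how their reads can be told apart. The last 60 coding bases end 521 (Cyp4a10) to 943 (Cyp4a14) bases before the transcript end. They therefore show likeness of sequence rather than the stretch nearest the 3′ end. These bases of each member, stop codon included, are shown 5′ to 3′ on the coding strand, from GENCODE M21 transcripts. Each is an unbroken stretch of the genome, at chr4:115487143-115487202 for Cyp4a14, chr4:115532640-115532699 for Cyp4a10, chr4:115578045-115578104 for Cyp4a31, chr4:115331943-115332002 for Cyp4a12a and chr4:115438166-115438225 for Cyp4a12b. Capitals mark bases that differ from a named relative, which is Cyp4a10 for Cyp4a14 and Cyp4a31, Cyp4a31 for Cyp4a10, Cyp4a12b for Cyp4a12a and Cyp4a12a for Cyp4a12b.
Cyp4a14: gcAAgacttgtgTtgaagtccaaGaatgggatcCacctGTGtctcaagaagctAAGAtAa
Cyp4a10: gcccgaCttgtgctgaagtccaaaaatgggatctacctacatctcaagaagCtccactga
Cyp4a31: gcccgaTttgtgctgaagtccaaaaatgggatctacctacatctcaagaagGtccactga
Cyp4a12a: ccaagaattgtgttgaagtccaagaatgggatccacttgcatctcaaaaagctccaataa
Cyp4a12b: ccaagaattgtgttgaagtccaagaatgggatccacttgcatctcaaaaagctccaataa

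Cyp4a14 differs from Cyp4a10 at 13 of these 60 bases and Cyp4a10 from Cyp4a31 at 2, whereas Cyp4a12a and Cyp4a12b are identical there. Over the whole coding sequence, 23 of 1527 bases differ between Cyp4a12a and Cyp4a12b (98.49% identity), 52 of 1530 between Cyp4a10 and Cyp4a31 (96.6%) and 379 of 1524 aligned bases between Cyp4a10 and Cyp4a14 (75.13%). In the last 500 bases of the transcript, 37.03% of 50-base windows of Cyp4a12a are also found in Cyp4a12b, against 5.99% for Cyp4a10 with Cyp4a31 and 0% for Cyp4a14. In the last 200 bases the share was 19.21% for Cyp4a12a, 22.52% for Cyp4a12b and 0% for Cyp4a10, Cyp4a31 and Cyp4a14. How the counter treated reads with several matches is not given in the sources used here. The division of counts between Cyp4a12a and Cyp4a12b is therefore uncertain, and that between Cyp4a10 and Cyp4a31 less so by this measure. Cyp4a10 and Cyp4a31 also share windows with Cyp4a32, which has 97.19% identity to Cyp4a10 over the coding sequence. Cyp4a32 is annotated with 0 bases after its stop codon. The last 500 bases of Cyp4a10 and Cyp4a31 lie after theirs, so sharing with Cyp4a32 there could not be measured.

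Low protein in the knockout was the comparison in which Cyp4a transcripts stood out. Cyp4a14 and Cyp4a10 rose in KO_LP relative to KO_NP, 12.5-fold and 3.33-fold in the fit, while Cyp4a31, Cyp4a12a and Cyp4a12b were not called. Calls are genes whose p in edgeR's quasi-likelihood test stayed under 0.05 after Benjamini-Hochberg adjustment over the 15165 genes. So 2 of 5 members were called, both higher, where 7.17% of all genes tested were called (544 higher and 543 lower). The median log2 fold change was 0.88 over the 5 members and 0.03 over all genes tested.

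Cyp4a14, the member with the largest span of values, had 86.0 CPM in its lowest KO_LP library, a median of 254 and 5150 in the highest, against 5.54, 19.7 and 387 CPM in KO_NP. KO_LP 6 alone held 5150 CPM, 14.3 times the next KO_LP library, and KO_NP 2 alone held 387 CPM, 7.46 times the next KO_NP library. The other 5 KO_LP libraries lay between 86.0 and 359 CPM and the other 5 KO_NP libraries between 5.54 and 51.9, so the groups overlapped only through KO_NP 2. All 6 KO_LP libraries were above the KO_NP mean of 83.0 CPM. The log2 fold change was 3.65 ± 1.07 (SE; 95% interval 1.55 to 5.74; adjusted p = 0.0436).

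Those 2 libraries pulled the Cyp4a14 estimate in opposite directions. Without KO_LP 6 the log2 fold change was 1.41 (adjusted p = 0.272), without KO_NP 2 it was 5.56 (adjusted p = 0.0149), and without both, a choice made after seeing the values, it was 3.33 (adjusted p = 0.0268). Over the 24 fits that each left out 1 library, Cyp4a14 was called in 16; leaving out KO_LP 4, KO_LP 6, any KO_NP library but KO_NP 2, or WT_LP 5 ended the call.

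Cyp4a10, the PPAR alpha target that shares most of its sequence with Cyp4a31, had 200.2 CPM in the lowest KO_LP library, a median of 284 and a highest value of 2010, against 106, 151 and 309 CPM in KO_NP. KO_LP 6 was again highest and KO_LP 1 followed at 678 CPM; these were the only KO_LP libraries above every KO_NP library, and the groups overlapped. The log2 fold change was 1.74 ± 0.45 (SE; 95% interval 0.85 to 2.62; adjusted p = 0.0314), with 6 of 6 KO_LP libraries above the KO_NP mean. Without KO_LP 6 it was 0.87 (adjusted p = 0.0906). The call held in 19 of the 24 fits that left out 1 library and ended without KO_LP 6, KO_NP 1, KO_NP 3, KO_NP 4 or KO_NP 5.

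Cyp4a31, a close relative of Cyp4a10 whose own role is less studied, had 301 CPM in the lowest KO_LP library, a median of 395 and a highest value of 1395, against 247, 305 and 407 CPM in KO_NP. KO_LP 6 and KO_LP 1, at 1395 and 667 CPM, again stood above the rest, and 3 KO_LP libraries exceeded every KO_NP library. The log2 fold change of 0.88 ± 0.28 (SE) had an adjusted p of 0.0556 and was not called. It was 0.40 without KO_LP 6.

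**Figure D1:**
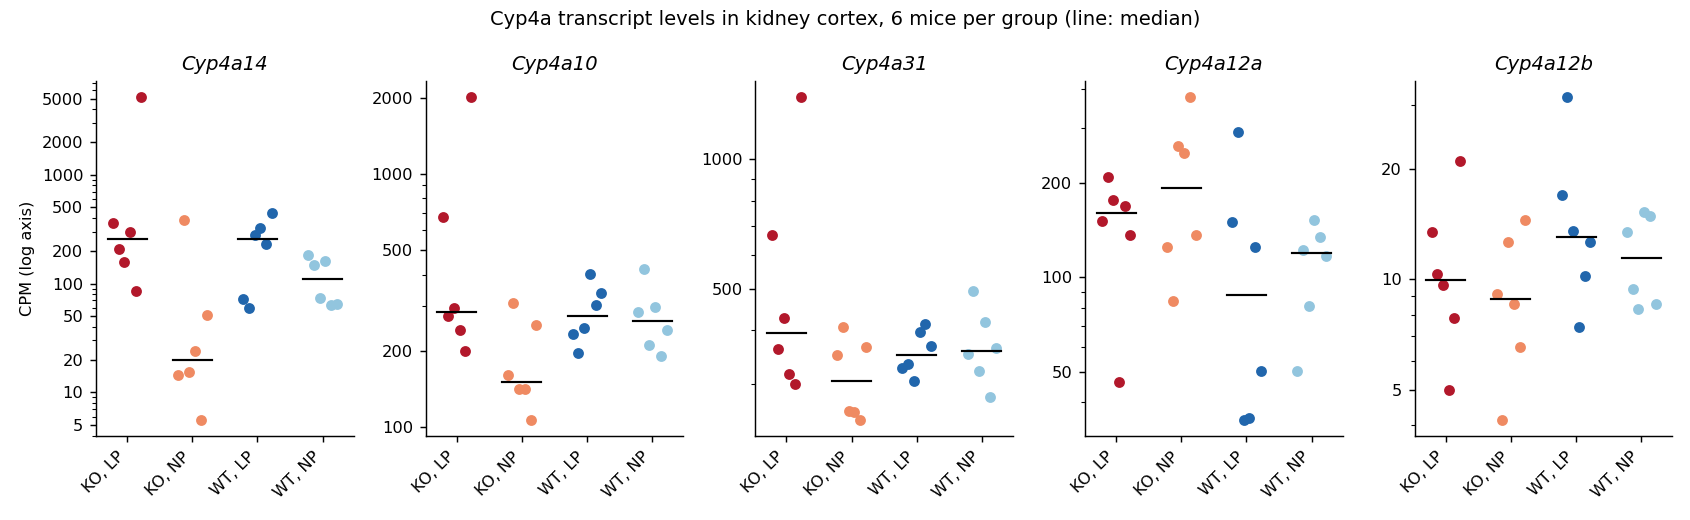
Each point is 1 library (mouse) and each panel 1 gene, with CPM on a log axis and the 4 groups along the horizontal axis; lines are group medians. Cyp4a14 spans 5.54 to 5150 CPM, KO_LP 6 is the highest library for Cyp4a14, Cyp4a10 and Cyp4a31, and KO_NP 2 stands above the other KO_NP libraries for Cyp4a14.

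**Figure D2:**
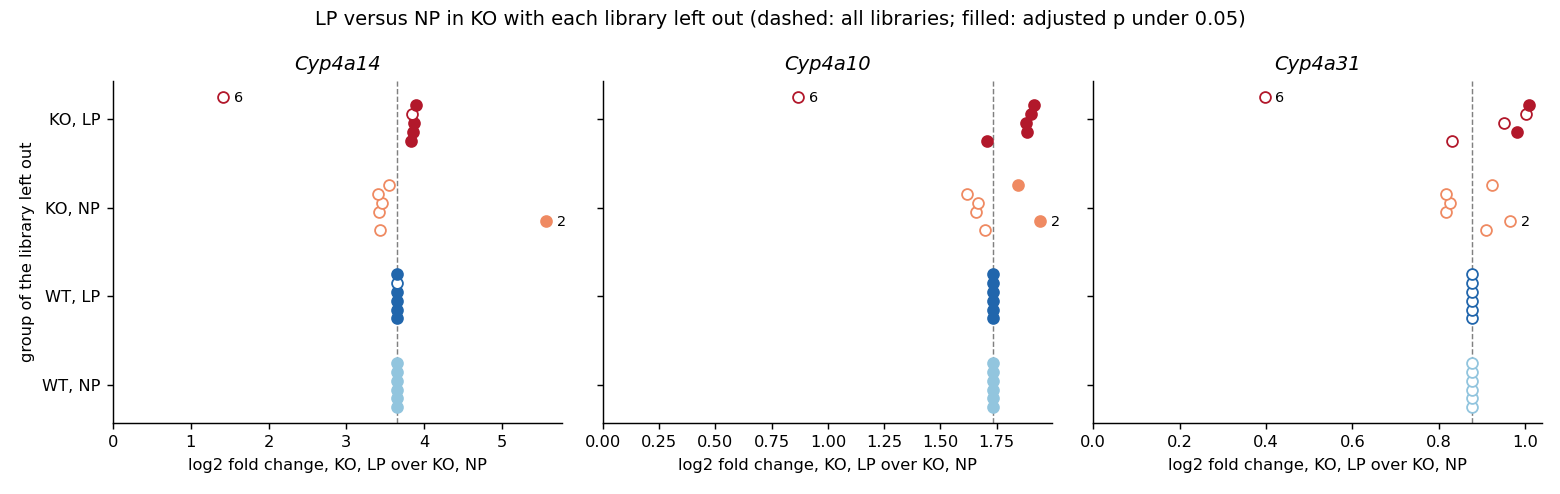
Log2 fold change of KO_LP over KO_NP when each of the 24 libraries was left out, by the group of that library; filled points had an adjusted p under 0.05, the dashed line is the estimate from all libraries and the numbers mark KO_LP 6 and KO_NP 2. For Cyp4a14 the estimate is 1.41 without KO_LP 6 and 5.56 without KO_NP 2, and for Cyp4a10 it is lowest, at 0.87, without KO_LP 6.

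Cyp4a12a, the 20-HETE synthase of males, had 46.4 CPM in the lowest KO_LP library, a median of 160.4 and 209 in the highest, against 84.2, 193 and 376 CPM in KO_NP. The groups overlapped; KO_NP 5 was the highest and KO_LP 4 the lowest library. The log2 fold change was -0.47 ± 0.47 (SE; 95% interval -1.40 to 0.46; adjusted p = 0.542). Cyp4a12b, whose coding sequence is nearly identical to that of Cyp4a12a, was scarce at 5.00, 9.99 and 21.1 CPM (lowest, median and highest) in KO_LP against 4.12, 8.83 and 14.5 in KO_NP. KO_LP 6 was the highest of these 12 libraries and KO_NP 2 the lowest, and the log2 fold change was 0.28 ± 0.35 (SE, adjusted p = 0.636).

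In wild type mice no member passed the test for low protein, and neither did any of the 15165 genes. In edgeR's quasi-likelihood test 0% of genes were called, while 580 had an unadjusted p under 0.05. DESeq2 called 16 genes and limma voom with quality weights per library (limma voom below) called 6. Limma on the deposited normalized values called 0, and none of the 5 members was called by any of these methods. At an unadjusted p under 0.05 the members also counted 0.

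Cyp4a14 had the widest wild type values, with 59.9 CPM in the lowest WT_LP library, a median of 257 and 449 in the highest, against 63.6, 111 and 185 CPM in WT_NP. The groups overlapped: 4 of 6 WT_LP libraries were above every WT_NP library, and WT_LP 2 was below all of them. The log2 fold change of 1.03 ± 0.98 (SE; 95% interval -0.88 to 2.94) had an adjusted p of 0.99996. The spread between mice thus left a wide range of changes of Cyp4a14 in wild type mice within the interval.

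Cyp4a10 lay between 196 and 401 CPM in WT_LP and between 191 and 419 in WT_NP, with a log2 fold change of 0.06 ± 0.44 (SE). Cyp4a31 lay between 304 and 414 CPM in WT_LP and between 280.1 and 494 in WT_NP, with -0.06 ± 0.28. For Cyp4a31 the WT_LP range lay within that of WT_NP, and the 95% interval for Cyp4a31, from -0.60 to 0.49, bounds its wild type change more tightly than that of any other member.

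Cyp4a12a had 34.9, 87.5 and 291 CPM (lowest, median and highest) in WT_LP against 50.3, 119 and 152 in WT_NP. Here WT_LP fell on either side of WT_NP: WT_LP 3, WT_LP 4 and WT_LP 6 were at or below 50.2 CPM, under every WT_NP library, and WT_LP 2 was above them all. The fitted log2 fold change was 0.06 ± 0.47 (SE), and its sign turned to -0.40 in limma voom. Cyp4a12b ran from 7.40 to 31.4 CPM in WT_LP and from 8.28 to 15.3 CPM in WT_NP, with a log2 fold change of 0.39 ± 0.34 (SE). WT_LP 2 was the highest library for both Cyp4a12 genes.

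The effects of low protein in the knockout and in wild type mice were not shown to differ for any member. The difference of the LP effects, KO minus WT, was called for 0 of 5 members and for 0% of all genes in edgeR, where 2430 genes and 2 members (Cyp4a10 and Cyp4a31) had an unadjusted p under 0.05. DESeq2 called 108 genes and 0 members, and limma voom and limma on normalized values called 0 genes. The difference on the log2 scale was 1.67 ± 0.63 (SE, adjusted p = 0.233) for Cyp4a10, 2.62 ± 1.39 (adjusted p = 0.354) for Cyp4a14 and 0.94 ± 0.39 (adjusted p = 0.259) for Cyp4a31. For Cyp4a12a it was -0.54 ± 0.67 and for Cyp4a12b -0.11 ± 0.49. Without KO_LP 6 the difference for Cyp4a14 was 0.38 and that for Cyp4a10 0.80.

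On normal protein, KO and wild type mice did not differ in a called way in any member. Of all genes tested, 0.574% were called (52 higher and 35 lower in KO), and 0 members. At an unadjusted p under 0.05 the counts were 1915 genes (12.6%) and 0 members. The comparisons of KO with wild type mice and of LP with NP share their groups, so their values are not independent. For Cyp4a14, the values given above placed 5 of 6 KO_NP libraries (5.54 to 51.9 CPM) below the lowest WT_NP library (63.6 CPM) and KO_NP 2 (387 CPM) above the highest (185 CPM). The fitted log2 fold change, which follows group means, was -0.48 ± 0.97 (SE; 95% interval -2.38 to 1.43; adjusted p = 0.873), and it was -2.39 without KO_NP 2 (adjusted p = 0.282).

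Cyp4a10 had 4 of 6 KO_NP libraries below every WT_NP library, with a log2 fold change of -0.56 ± 0.44 (SE, adjusted p = 0.630). Cyp4a31 had 3 of 6 below, with -0.24 ± 0.28 (adjusted p = 0.752). Cyp4a12a went the other way, with 3 of 6 KO_NP libraries above every WT_NP library and a log2 fold change of 0.91 ± 0.48 (SE; 95% interval -0.02 to 1.84; adjusted p = 0.440). Cyp4a12b had -0.35 ± 0.35 (adjusted p = 0.716). None of these passed the test.

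On low protein, 2.93% of all genes were called between KO and wild type mice (204 higher and 241 lower in KO) and 0 of 5 members. An unadjusted p under 0.05 was found for 21.1% of all genes (3196) and for 3 members. These were Cyp4a14 with a log2 fold change of 2.14 ± 1.002 (SE, adjusted p = 0.223), Cyp4a10 with 1.11 ± 0.44 (adjusted p = 0.156) and Cyp4a31 with 0.69 ± 0.28 (adjusted p = 0.156). The medians of KO_LP and WT_LP were close for Cyp4a14, 254 and 257 CPM, and for Cyp4a10, 284 and 274 CPM. Without KO_LP 6 the log2 fold changes were -0.09, 0.24 and 0.21. Cyp4a12a had 0.37 ± 0.47 (adjusted p = 0.687) and Cyp4a12b -0.45 ± 0.34 (adjusted p = 0.464).

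**Figure D3:**
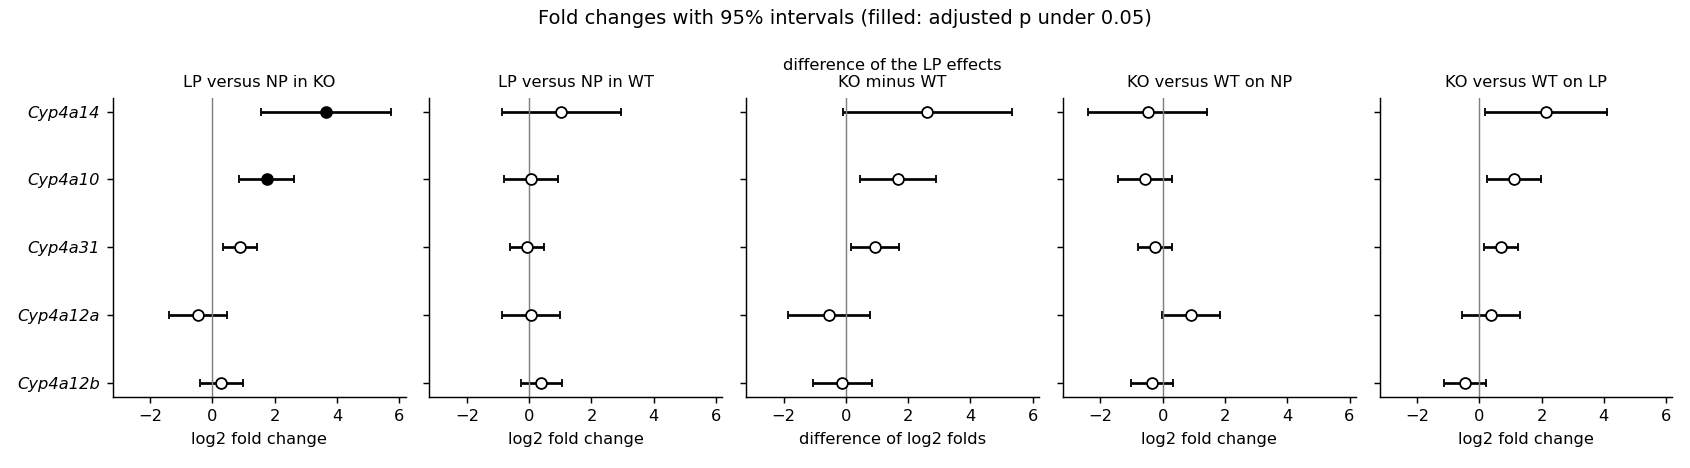
Log2 fold changes of the 5 genes in the 5 comparisons (horizontal axis; the middle panel is a difference of log2 folds), with 95% intervals from the edgeR fit; filled points had an adjusted p under 0.05. Filled points are Cyp4a14 at 3.65 and Cyp4a10 at 1.74 for LP versus NP in KO.

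Ordered by group medians, Cyp4a14 was at 257 CPM in WT_LP, 254 in KO_LP, 111 in WT_NP and 19.7 in KO_NP; only the step between KO_LP and KO_NP passed a test. For Cyp4a10 the order was 284 CPM in KO_LP, 274 in WT_LP, 263 in WT_NP and 151 in KO_NP, and the 3 highest neighbours were within each other's ranges. For Cyp4a31 the order was 395 CPM in KO_LP, 358 in WT_NP, 351 in WT_LP and 305 in KO_NP, without a called difference. Cyp4a12a ran 193 CPM in KO_NP, 160.4 in KO_LP, 119 in WT_NP and 87.5 in WT_LP, and Cyp4a12b 13.1 in WT_LP, 11.4 in WT_NP, 9.99 in KO_LP and 8.83 in KO_NP, all with overlapping ranges.

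Members differed in how much mice of 1 group varied. The biological coefficient of variation in the fit was 106% for Cyp4a14, 55.2% for Cyp4a12a, 51.6% for Cyp4a10, 40.3% for Cyp4a12b and 33.3% for Cyp4a31, against 19.6% in common over all genes tested. Every member thus varied more between mice than that common value.

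Across the 24 libraries, Cyp4a10, Cyp4a31 and Cyp4a14 varied together. Pearson's r of log2 CPM was 0.96 for Cyp4a10 with Cyp4a31 (Spearman's rho 0.90; permutation p = 1e-05, the smallest that 100000 resamples can give; adjusted p = 5e-05 over 10 pairs of members) and 0.89 for Cyp4a10 with Cyp4a14 (rho 0.85; p = 1e-05 and adjusted p = 5e-05 again). For Cyp4a14 with Cyp4a31 r was 0.77 (rho 0.62; permutation p = 2e-05; adjusted p = 6.67e-05). Taken as residuals from the group means, so that differences between groups do not enter, r was 0.96, 0.86 and 0.74. Without the 2 libraries farthest from the median of the first gene of each pair, r was 0.87, 0.88 and 0.56. Shared windows of sequence between Cyp4a10 and Cyp4a31, and library factors common to all pairs, enter these values and their part was not tested.

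Levels of Cyp4a12a and Cyp4a14 were inversely related. Over 24 libraries r was -0.52 (rho -0.53; permutation p = 0.00816; adjusted p = 0.0204), the residual r was -0.53 (adjusted p = 0.0318) and r without the libraries WT_LP 3 and WT_LP 4 was -0.51. Within groups of 6, r was -0.87 in WT_LP and -0.83 in KO_NP, and -0.15 in KO_LP and -0.28 in WT_NP. The pattern can be read in single mice of KO_NP and WT_LP. KO_NP 5 had 376 CPM of Cyp4a12a and 5.54 of Cyp4a14, while KO_NP 2 had 84.2 and 387 CPM. WT_LP 2 had 291 CPM of Cyp4a12a and 59.9 of Cyp4a14, while WT_LP 6 had 50.2 and 449 CPM. Mice of the other groups did not all follow it: KO_LP 2 had 209 CPM of both genes, and WT_NP 4 had 152 CPM of Cyp4a12a and 163 of Cyp4a14. Cyp4a12a with Cyp4a10 had r -0.28 (rho -0.41; adjusted p = 0.289 for r), and r -0.60 without KO_LP 6 and KO_LP 1; within groups r was -0.90 in KO_NP, -0.71 in WT_LP, 0.087 in KO_LP and 0.054 in WT_NP. Apart from Cyp4a12a with Cyp4a14, the pairs with Cyp4a12a or Cyp4a12b, this one included, did not pass the adjustment over all libraries. Cyp4a12a with Cyp4a12b had r 0.24 (adjusted p = 0.335) and a residual r of 0.51 (adjusted p = 0.0525).

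**Figure D4:**
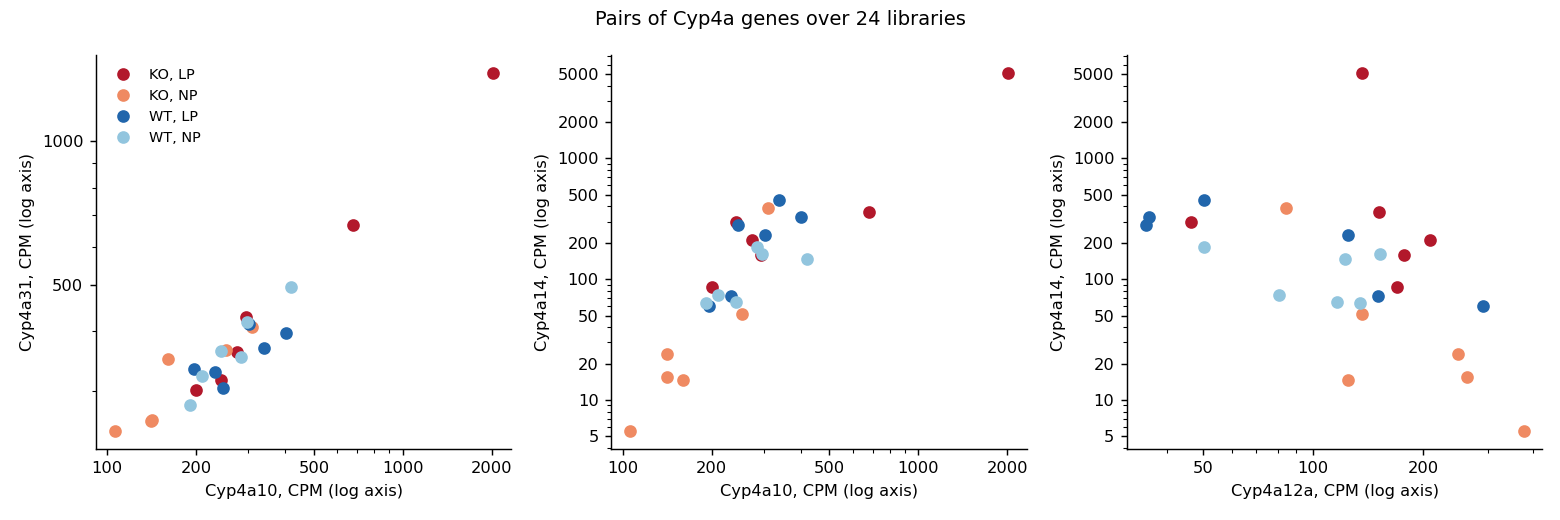
Each point is 1 of 24 libraries, coloured by group, with CPM on log axes; the panels show Cyp4a31 against Cyp4a10, Cyp4a14 against Cyp4a10, and Cyp4a14 against Cyp4a12a. The first 2 panels rise together (r 0.96 and 0.89 on the log2 scale). In the last panel Cyp4a14 tends to be lower where Cyp4a12a is higher (r -0.52), with exceptions such as KO_LP 2 at 209 CPM of both.

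The ratio of Cyp4a12a to Cyp4a12b counts, examined after the values were seen, had a median of 14.8 in KO_LP, 20.6 in KO_NP, 6.85 in WT_LP and 9.86 in WT_NP. In all comparisons the groups overlapped. The log2 ratio was higher by 1.21 in KO_NP than in WT_NP (exact permutation p = 0.0195) and by 1.13 in KO_LP than in WT_LP (exact permutation p = 0.0325), with an adjusted p of 0.0649 for each over 4 comparisons. Neither passed the adjustment, nor did the diet differences of -0.68 in KO and -0.59 in wild type mice (exact permutation p = 0.173 and 0.204). Reads shared by the pair can move between them in this ratio.

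The genes most like each member, by Pearson's r of log2 CPM over the 24 libraries among 10082 genes, were these, given as a description. For Cyp4a10 they were Vnn1 (0.93), a pantetheinase, Acot1 (0.92), a cytosolic acyl-CoA thioesterase, and Pex11a (0.91), a peroxisome division factor. Without KO_LP 6 and KO_LP 1, the 2 libraries farthest from the Cyp4a10 median, r was 0.76, 0.77 and 0.76. For Cyp4a31 they were Vnn1 (0.97), Pex11a (0.94) and Pxmp4 (0.93), a peroxisomal membrane protein. Without KO_LP 6 and KO_LP 1, r with Cyp4a31 was 0.86, 0.84 and 0.72. For Cyp4a14 they included Cbr1 (0.83), a carbonyl reductase, and Tnfrsf1a (0.82), a receptor for tumour necrosis factor. Without KO_LP 6 and KO_NP 5, r with Cyp4a14 was 0.76 and 0.72. KO_LP 6 was the highest library for each of these 6 genes. Vnn1 and Acot1 are also among the PPAR alpha targets outside Cyp4a counted below. For Cyp4a12a they were Ldhd (0.88), a D-lactate dehydrogenase, Pzp (0.86), a protease-binding protein, and Chst11 (0.86), a sulfotransferase, which were highest in KO_NP 5, KO_NP 1 and KO_NP 5. For Cyp4a12b they were Adal (0.72), Trim25 (0.71) and Nploc4 (0.70), at lower values of r.

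PPAR alpha targets outside Cyp4a were next examined, with PPAR alpha itself. For low protein in the knockout, 8 of 27 tested targets rose and none fell, where 7.17% of all genes were called. In counts over lists, here and below, rose and fell mean called higher and called lower. Of the 27 targets, 23 had a log2 fold change above 0 and 4 below. Their median log2 fold change was 0.55 against 0.03 over all genes. Angptl4, an inhibitor of lipoprotein lipase, had 38.0 CPM in the lowest KO_LP library, a median of 48.6 and 178 in the highest, against 22.0, 26.5 and 39.6 CPM in KO_NP. The groups overlapped narrowly and KO_LP 6 was highest; the log2 fold change was 1.29 ± 0.34 (SE, adjusted p = 0.0318). Without KO_LP 6 it was 0.77 (adjusted p = 0.0761).

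Others that rose were Pdk4, an inhibitor of glucose oxidation, Plin2, a lipid droplet coat protein, the acyl-CoA thioesterases Acot1 and Acot2, the uncoupling protein Ucp2 and Txnip, a binder of thioredoxin. Their log2 fold changes were 3.52, 2.03, 1.85, 1.35, 1.17 and 0.60. KO_LP 6 had 142 CPM of Pdk4 against 9.57 CPM in the next KO_LP library, and 1310 CPM of Plin2 against 113 CPM in the next. The summed level of the 27 targets was 10017 CPM in KO_LP 6, 2742 to 4588 CPM in the other KO_LP libraries and 2736 to 2932 CPM in KO_NP. Without KO_LP 6, 1 of 27 targets rose (3.04% of all genes were called then), and without KO_NP 2, 4 did (4.97% of all genes).

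Ppara, the receptor, had a median of 66.0 CPM in KO_LP (37.5 to 86.6) and 88.6 CPM in KO_NP (48.4 to 129). These ranges overlapped, and the log2 fold change was -0.39 (adjusted p = 0.260). Of the 12 genes for PPAR alpha and its cofactors, 1 fell, the coactivator Ppargc1a at -0.37 (adjusted p = 0.0428), and none rose. Of all genes tested, 7.17% were called in this comparison. Without KO_LP 6 Ppargc1a was at -0.30 (adjusted p = 0.0810). Rxra, the partner receptor, had a median of 58.7 CPM in KO_LP and 61.0 in KO_NP.

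**Figure D5:**
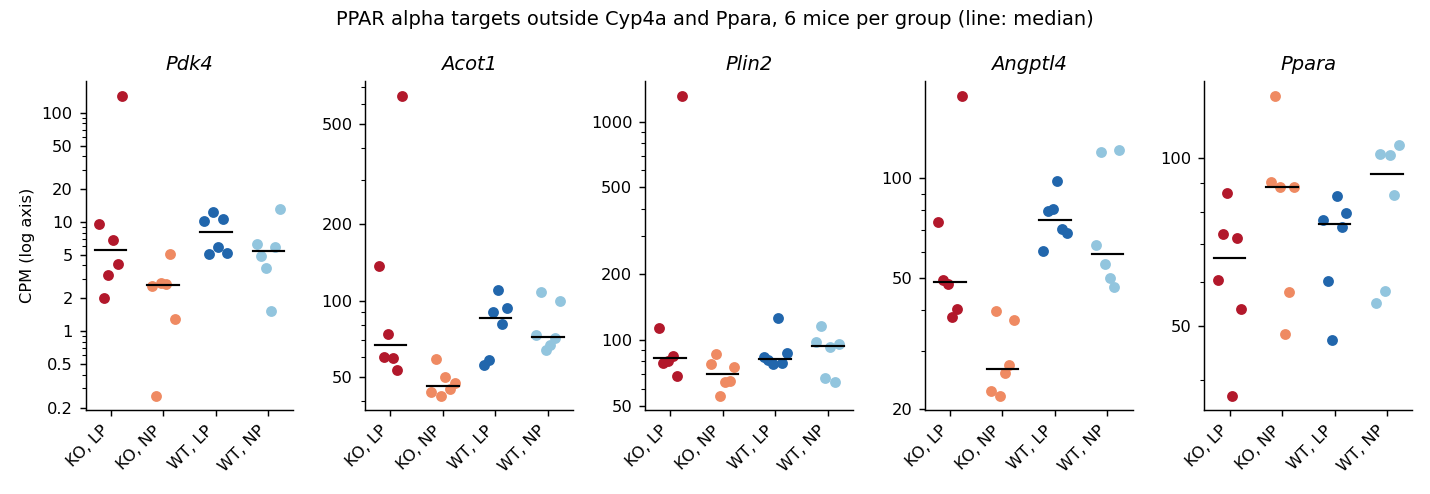
CPM on a log axis in each library for 4 PPAR alpha targets and Ppara, with the groups along the horizontal axis and lines at group medians. Angptl4 spans 38.0 to 178 CPM in KO_LP and 22.0 to 39.6 CPM in KO_NP; KO_LP 6 is the highest KO_LP point for the 4 targets but not for Ppara.

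In the knockout, 7.17% of all genes tested were called for low protein. Among genes that work beside Cyp4a in omega oxidation, none was called higher. Of 4 genes for electron supply none rose and 2 fell, Cyb5a (-0.55, adjusted p = 0.0329) and Cyb5b (-0.39, adjusted p = 0.0398), which encode forms of cytochrome b5. Without KO_LP 6 neither was called, at -0.52 (adjusted p = 0.0604) and -0.35 (adjusted p = 0.0738). Por, the P450 reductase, had a median of 227 CPM in KO_LP and 246 in KO_NP, with a log2 fold change of -0.16. Of 9 tested genes for the steps after hydroxylation, 1 fell, the medium-chain acyl-CoA synthetase Acsm1 (-0.94, adjusted p = 0.0428), and none rose. Without KO_LP 6 Acsm1 was at -0.76 (adjusted p = 0.0617).

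None of the 17 genes for peroxisomal oxidation of dicarboxylic acids was called for low protein in the knockout, where 7.17% of all genes were. Their median log2 fold change was 0.28 (0.0036 without KO_LP 6). Ehhadh, the peroxisomal bifunctional enzyme, was at 425 CPM in KO_LP 6, with the other KO_LP libraries between 11.8 and 65.3 CPM and KO_NP between 3.8003 and 54.0. Apart from KO_LP 6, KO_LP and KO_NP thus covered much the same range for Ehhadh. Between KO and wild type mice on low protein 1 of the 17 rose, where 2.93% of all genes were called. The median over the list was 0.30.

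Other fatty acid hydroxylases and the epoxygenases, which turn arachidonic acid into epoxides, had calls in either direction for low protein in the knockout. Over all genes tested, 7.17% were called there. Of 7 other Cyp4 genes, Cyp4v3 rose (0.70, adjusted p = 0.0376) and the scarce Cyp4f15 fell (-1.34, adjusted p = 0.0371). Without KO_LP 6 neither was called, at 0.69 (adjusted p = 0.0598) and -1.30 (adjusted p = 0.0613). Cyp4b1, the most abundant of them, had a median of 2328 CPM in KO_LP and 3029 in KO_NP and was not called (-0.38, adjusted p = 0.291). Of 9 tested genes of the epoxide branch, Cyp2j9 rose (0.81, adjusted p = 0.0232) and Cyp2j5, an abundant epoxygenase of the proximal tubule, fell (-0.67, adjusted p = 0.0271). Cyp2j5 had a median of 967 CPM in KO_LP and 1473 CPM in KO_NP, without overlap of the groups. Ephx2, the soluble epoxide hydrolase, had -0.09 (adjusted p = 0.794). In wild type mice 0% of all genes were called for low protein, so none of these lists could hold a called gene. Between KO and wild type mice on low protein, where 2.93% of all genes were called, Cyp2j9 was higher (1.12, adjusted p = 0.00145). It had 8.51 to 23.3 CPM in KO_LP against 5.01 to 6.61 CPM in WT_LP, without overlap. Cyp4f14, a scarce Cyp4 gene at medians of 0.23 CPM in KO_LP and 1.09 CPM in WT_LP, fell (-1.70, adjusted p = 0.0208). Of the 27 PPAR alpha targets, 1 fell there, the carnitine transporter Slc22a5 (-0.52, adjusted p = 0.0420), and none rose.

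Of 18 androgen-responsive or male-biased kidney genes, which share that known trait with Cyp4a12a, 2 fell and none rose for low protein in the knockout, with a median log2 fold change of -0.45, where 7.17% of all genes were called. They were Ugt2b37, a glucuronosyltransferase (-1.16, adjusted p = 0.0236), and Odc1, the first enzyme of polyamine synthesis (-0.83, adjusted p = 0.0442). Without KO_LP 6, 1 of 18 fell, Ugt2b37, and Odc1 was at -0.69 (adjusted p = 0.0805). Kap, an abundant androgen-regulated protein of the proximal tubule, and the transporter Slco1a1 were not called, with log2 fold changes of -0.55 and -0.85. On normal protein, where 0.574% of all genes were called, Ugt2b37 was the member of this list called between KO and wild type mice (1.18, adjusted p = 0.0483). Of 8 female-biased genes none was called for low protein in the knockout.

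Markers of cells and of injury moved in the same comparison as Cyp4a14 and Cyp4a10. For low protein in the knockout, 7 of 12 tubular injury markers rose, where 7.17% of all genes tested were called. Their median log2 fold change was 1.17. Without KO_LP 6, 2 of 12 rose (3.04% of all genes were called then), and the median was 1.14. Their summed level ran from 1430 to 3938 CPM in KO_LP, highest in KO_LP 6, and from 814 to 1244 CPM in KO_NP. In wild type mice it ran from 846 to 3415 CPM in WT_LP and from 753 to 2839 CPM in WT_NP. Of 14 markers of the early proximal tubule 3 fell and none rose (median -0.43; without KO_LP 6, none of 14 was called and the median was -0.39), with sums of 4719 to 7809 CPM in KO_LP and 7705 to 9778 CPM in KO_NP. Of 13 markers of the late proximal tubule 1 rose and 1 fell (median -0.46; without KO_LP 6, none and -0.34).

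Immune cell markers counted 3 of 18 that rose (median 0.9995), where 7.17% of all genes tested were called. Without KO_LP 6 the count was 1 of 17, with a median of 1.18, where 3.04% of all genes were called. Sums ran from 1798 to 15352 CPM in KO_LP and from 1744 to 3229 CPM in KO_NP. KO_LP 5 had the highest sum, and the next KO_LP library had 4855 CPM. WT_NP 1 had 12460.5 CPM. Hepatocyte markers counted 4 of 8 that rose, the fibrinogen chains Fga, Fgb and Fgg and Serpina1a, and 2 that fell, Alb and Apoa2; without KO_LP 6 these counts were 3 and 1. None of 4 adipocyte markers was called, and 1 of 2 adrenal markers, Akr1b7, rose, with a sum of both at 15.6 CPM in KO_LP 6 and at most 3.75 CPM in any other KO_LP library; 1.38 to 3.59 CPM were found in KO_NP. None of 5 medulla markers was called. The part of these changes in the Cyp4a values was not tested.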

How the data were processed

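Kidney cortex RNA of 24 mice, 1 library each, was sequenced with Lexogen QuantSeq. The raw counts per gene were deposited by the authors, as was a normalized signal, equal to those counts divided by a size factor per library. Per the submitters' processing notes, the build was GRCm38 and DESeq2 1.22.2 was used; for the aligner, the counter and the treatment of reads with several matches, nothing is given in the sources used here. Genes with low counts had been removed before deposit (the lowest mean count was 3). Of the gene IDs, 14208 carried a symbol in the file, 2668 took theirs from GENCODE M21 and 45 had no match.

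The counts were filtered with filterByExpr, scaled by TMM and fitted with edgeR 4.0.16 (R 4.3.3) by the robust quasi-likelihood method, with 4 group means over 24 libraries. P-values were adjusted over 15165 genes and called under 0.05. An SE is the log2 fold change divided by the root of the F statistic, and a 95% interval is a normal one from that SE. Log2 CPM used a prior count of 2. Replicate numbers only name libraries, and p-values measure the spread between mice. Alternatives were DESeq2 1.42.0, limma voom with quality weights per library, and limma on the log2 of the normalized values plus 1 (limma 3.58.1). Others were other filters, 12 libraries per fit, summed paralogs and leaving out each library. Those that left out KO_LP 6 and KO_NP 2 together were chosen after seeing the data. The sum of Cyp4a10 and Cyp4a31 was not planned beforehand either. Correlations of log2 CPM used permutation tests with 100000 resamples over 10 pairs; the design had counted 4 genes. The ratio used an exact permutation test. The genes named are the 5 members, the called genes and main enzymes of the lists, and the 3 genes of highest r for each member among those with a mean of at least 5 CPM. The members and lists were chosen with earlier results of these data known. The fit was tested on simulated data. Coding sequences were aligned with MAFFT 7.526; the other steps ran in Python 3.11.15 with scipy 1.17.1, numpy 2.4.6, matplotlib 3.10.9 and pandas 2.3.3. Some genes of the lists are counted but not reported by name here.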

Additional observations from a re-analysis of the deposited data

Results flagged for a closer look

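For 4 of 20 combinations of a member and a group, 1 library stood far from the other 5 by Dixon's test at the 95% level; chance gives about 1 in 20 such groups if values are normally distributed, and CPM are skewed. Of these, 3 were KO_LP 6, with 5150 CPM of Cyp4a14, 2010 CPM of Cyp4a10 and 1395 CPM of Cyp4a31. The other was KO_NP 2, with 387 CPM of Cyp4a14. On log2 CPM, a scale chosen after seeing the data, 2 combinations passed the same limit: Cyp4a14 in KO_LP 6, and Cyp4a12a in KO_LP 4, the lowest of its group at 46.4 CPM. The remaining 3 of the 4 did not, with a gap over range of 0.471 for Cyp4a10 and 0.481 for Cyp4a31 in KO_LP 6 and 0.475 for Cyp4a14 in KO_NP 2. The cause was not tested.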

How the results depend on the processing

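No paired analysis was possible because the labels tie no mouse of 1 group to a mouse of another; replicate numbers were given in accession order. Values are log2 fold changes, and where a call or sign changed the cause was not tested. For LP versus NP in KO, Cyp4a14 was not called with no filter on low counts (3.64) or with only the 12 libraries compared (3.65), nor was Cyp4a10 with those 12 (1.74) or in limma on normalized values (1.26). Cyp4a31 was called with a filter of 5 CPM in 6 libraries (0.89) and in DESeq2 (0.87). The summed counts of Cyp4a10 and Cyp4a31, tested as a single gene, were also called (1.26), which is not a call of Cyp4a31 alone. For LP versus NP in WT, signs turned for Cyp4a12a in limma voom (-0.40) and limma on normalized values (-0.30), and for Cyp4a10 summed with Cyp4a31 (-0.0048). The difference of LP effects for Cyp4a12a turned to 0.097 in limma voom. Cyp4a12b summed with Cyp4a12a gave -0.43 for LP versus NP in KO, 0.83 for KO versus WT on NP and 0.30 for KO versus WT on LP.

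Genes called numbered 1744 in limma voom and 1855 in DESeq2 for LP versus NP in KO, 6 and 16 in WT, 154 and 232 for KO versus WT on NP, and 904 and 889 for KO versus WT on LP, where 12 libraries gave 161. DESeq2 called 108 for the difference of LP effects.

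Leaving out 1 library, or KO_LP 6 and KO_NP 2 together, gave ranges for LP versus NP in KO of 0.87 to 1.94 for Cyp4a10, 1.41 to 5.56 for Cyp4a14, 0.40 to 1.01 for Cyp4a31 and -0.17 to 0.45 for Cyp4a12b, with 122 (without KO_NP 5) to 2006 (without KO_LP 1) genes called. In WT they were -0.057 to 0.23 for Cyp4a10, -0.47 to 0.25 for Cyp4a12a and -0.13 to 0.041 for Cyp4a31, with 0 to 4 genes called. The difference of LP effects for Cyp4a12b ran from -0.55 to 0.22. KO versus WT on LP ran from -0.094 to 2.42 for Cyp4a14, with 180 (without WT_LP 1) to 733 (without WT_LP 3) genes called. KO versus WT on NP had 52 (without KO_NP 1) to 151 (without KO_LP 6).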

Other observations

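The 5 genes together took 0.0811% to 0.915% of all counts in KO_LP, 0.0620% to 0.114% in KO_NP, 0.0754% to 0.126% in WT_LP and 0.0649% to 0.115% in WT_NP. KO_LP 6 held the highest share.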
